A study of Mus musculus with 16 samples.

Results

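Dispersed pancreatic islet cells of Grp78 flox/flox mice that received an adenovirus expressing Cre recombinase (Ad-Cre) were compared with cells of the same islet preparations that received an adenovirus expressing LacZ (Ad-LacZ), with the JNK inhibitor JNK-IN-8 present in both arms from the start of culture. The comparison uses 8 of the 16 libraries of the series, 4 labelled Ad-Cre + JNK Inh and 4 labelled Ad-LacZ + JNK Inh, and pairs them by the preparation code in the sample title (F1, M1, M2 and F2). The other 8 libraries hold the same preparations and viruses with DMSO in place of the inhibitor, and they enter below only where a difference between the inhibitor and DMSO arms was tested.

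All 16 cultures were kept in medium with 15 mM glucose for 72 h, and both alleles of the target gene carried loxP sites in every library, controls included. Each preparation carries a pair of numbers in its title, and the study describes its sequencing donors as adult mice, females and males. The virus reaches any islet cell type and not only β cells, and the cultures were sequenced in bulk from poly(A) RNA as paired reads of 150 bases. A lower value in bulk RNA cannot tell fewer cells of a type from less RNA per cell.

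GRP78 (BiP, encoded by Hspa5) is the main chaperone of the endoplasmic reticulum (ER) lumen, where it folds new secretory proteins and holds the stress sensors IRE1, PERK and ATF6 inactive. When unfolded proteins draw GRP78 away, ATF6 and the IRE1 product XBP1 raise ER chaperones and the machinery of ER-associated degradation, while PERK slows translation and raises ATF4 and its targets, among them CHOP (Ddit3). IRE1 can also activate the Jun N-terminal kinases (JNK), which phosphorylate AP-1 factors such as JUN. β cells make insulin at a high rate and depend on this system, and the question put by the comparison is what loss of GRP78 does to islet cell transcripts while JNK is blocked.

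Much of this response is written in short promoter elements, so those of the genes the results turn on are printed first. The ER stress element (ERSE) is CCAAT and CCACG set 9 bases apart and is bound by NF-Y with ATF6 or XBP1; ERSE-II is ATTGG and CCACG set 1 base apart. The windows below come from RefSeq (GRCm38.p6), read 5′ to 3′ along the gene's own strand; all lie before the annotated start of transcription, and capitals mark the outer 5 bases of each element on either side, which read CGTGG and ATTGG where the element lies on the opposite strand.
Hspa5, chr2:34772005-34772063, plus strand: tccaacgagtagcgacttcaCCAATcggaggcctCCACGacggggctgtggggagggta
Hsp90b1, chr10:86705618-86705676, minus strand: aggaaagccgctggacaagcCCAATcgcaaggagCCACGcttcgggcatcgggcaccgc
Hsp90b1, chr10:86705513-86705571, minus strand: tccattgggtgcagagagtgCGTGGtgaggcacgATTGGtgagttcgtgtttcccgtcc
Calr, chr8:84847055-84847113, minus strand: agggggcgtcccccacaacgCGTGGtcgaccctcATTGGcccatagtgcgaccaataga
Creld2, chr15:88819500-88819558, plus strand: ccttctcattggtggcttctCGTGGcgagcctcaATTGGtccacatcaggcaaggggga
Derl3, chr10:75893222-75893280, plus strand: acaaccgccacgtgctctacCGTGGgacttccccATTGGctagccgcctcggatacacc
Dnajc3, chr14:118937807-118937865, plus strand: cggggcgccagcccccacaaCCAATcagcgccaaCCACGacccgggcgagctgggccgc
Pdia6, chr12:17266471-17266529, plus strand: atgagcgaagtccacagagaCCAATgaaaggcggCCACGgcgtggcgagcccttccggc
Herpud1 (ERSE-II), chr8:94386357-94386407, plus strand: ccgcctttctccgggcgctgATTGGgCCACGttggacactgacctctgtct

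The values are RPKM, read counts scaled to gene length and to the mapped reads of the library. Depth recovered from the steps of low values ran from 21.2 to 25.5 M reads (M, mega) in the Ad-LacZ libraries and from 7.72 to 20.8 M reads in the Ad-Cre libraries; the lowest was Ad-Cre F2, which is also the only library whose label names another run and lane. The table lists 25105 genes; 11598 of them exceeded 1 RPKM in 4 or more of these 8 libraries and were tested with limma on log2(RPKM + 1) after scaling, with the preparation as a block. A gene is said to have passed the test, to have risen or to have fallen where its Benjamini-Hochberg adjusted p over all 11598 genes was under 0.05. Fold changes are Ad-Cre over Ad-LacZ on that log2 scale unless stated otherwise, and they understate the change of genes near 1 RPKM.

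Under JNK inhibition the libraries labelled Ad-Cre differed broadly from their controls, in both directions. By adjusted p alone, 2882 genes (24.8%) passed the test, 1466 higher (12.6%) and 1416 lower (12.2%) in Ad-Cre. Asking for a fold change above 1.5 as well left 1844 genes called (15.9%), with 998 up (8.6%) and 846 down (7.29%), and 1840 of the 1844 moved the same way in all 4 preparations. The RPKM ranges of the groups did not overlap for 3441 genes (29.7%). The count leaned on single preparations: 342 genes were called without F2, 486 without M1, 1836 without F1 and 2787 without M2. All 1839 called genes that could be tested without F2 kept their sign. That was nearly certain in advance, since almost all called genes had moved the same way in all 4 preparations. Of the 1839, 341 were called again.

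The whole-gene level of the targeted gene was higher, not lower, in the libraries labelled Ad-Cre. Hspa5 stood at 458, 461, 348 and 372 RPKM in the Ad-LacZ libraries of F1, M1, M2 and F2, and at 1381, 1416, 1202 and 1660 RPKM in the libraries labelled Ad-Cre. Every Ad-Cre library was above every Ad-LacZ library, with means of 410 ± 58.4 and 1415 ± 189 RPKM (SD, n = 4). The log2 fold change was 1.92 (SE 0.16, limma adjusted p = 0.00227), and the exact two-sided permutation test of 4 against 4, which leaves the pairing out, gave p = 0.0286, the smallest it allows. Without F2 the log2 fold change was 1.79 (limma adjusted p = 0.0268). Gene-level RPKM does not separate the floxed exons from the rest of the gene, so these values do not check the deletion and cannot show how much of the RNA could still encode GRP78. All directions below are those of the libraries labelled Ad-Cre.

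ER chaperones rose together. All 25 genes of the list were tested, and 18 rose, none fell and 7 did not pass (16 rose and 1 fell under quantile normalization), with a median log2 fold change of 1.48 against −0.03 over all genes tested. The medians in F1, M1, M2 and F2 were 1.09, 1.28, 1.76 and 2.00, so each preparation showed the shift. Without F2, 12 of the 25 passed and the median was 1.30. Without the inhibitor 19 rose and none fell, with a median of 1.14.

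Creld2, a chaperone released under ER stress, went from 73.5, 68.7, 41.9 and 50.8 RPKM in Ad-LacZ to 900, 920, 803 and 1277 RPKM in Ad-Cre (log2 fold change 4.17, SE 0.22, limma adjusted p = 0.00139). Hsp90b1, which encodes the HSP90 of the ER (GRP94), went from 879, 644, 457 and 483 RPKM to 1872, 2114, 2587 and 2850 RPKM (log2 fold change 2.10, SE 0.30, limma adjusted p = 0.00684). Calr, the lectin chaperone calreticulin, went from 471, 393, 243 and 258 RPKM to 1412, 1270, 1251 and 1377 RPKM (log2 fold change 2.14, SE 0.21, limma adjusted p = 0.00307). In these 3 genes the groups lay wide apart, and in each of them the preparations with the lower controls, M2 and F2, had the larger rises. Without F2 the adjusted p of Hsp90b1 was 0.0558, with a log2 fold change of 1.89.

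**Figure D1:**
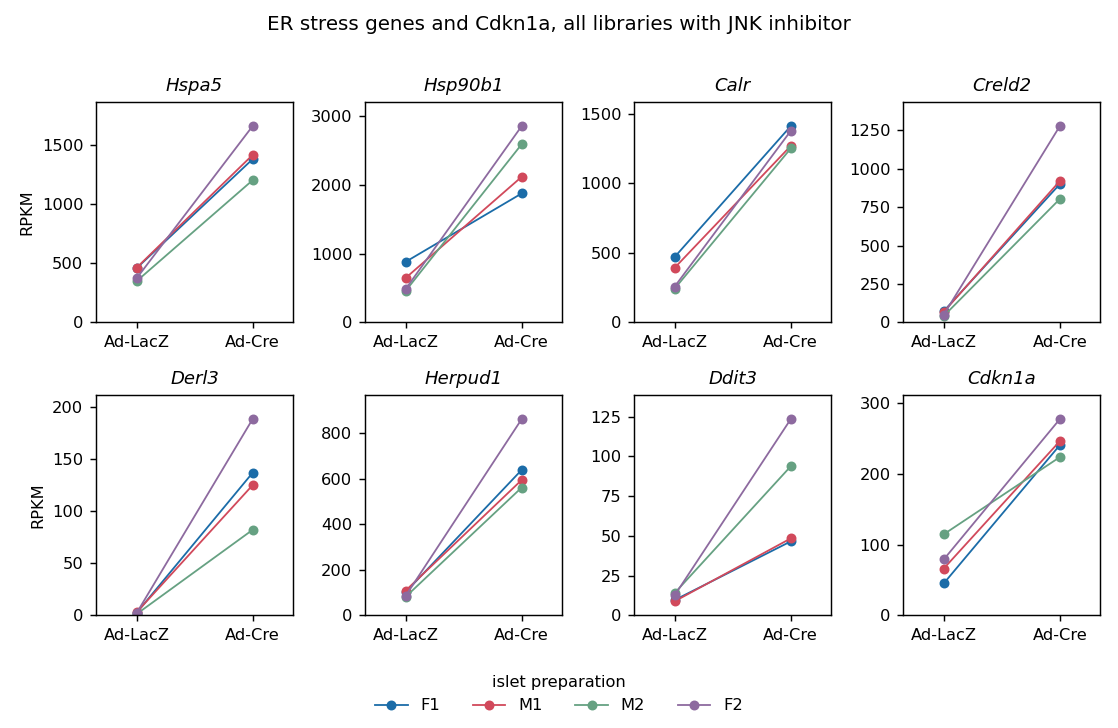
RPKM of 8 genes in the Ad-LacZ and Ad-Cre libraries with JNK inhibitor; each line joins the 2 libraries of 1 islet preparation, and each y axis starts at 0 with its own scale. All 4 lines rise in every panel, from 348 to 461 RPKM to 1202 to 1660 RPKM for Hspa5 and from below 3 to above 82 RPKM for Derl3.

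Other chaperones rose as well. Pdia4, a protein disulfide isomerase of the ER, changed by 3.44, Sdf2l1, a partner of ER HSP40 proteins, by 2.75, Hyou1, the HSP110 of the ER, by 2.17 and Fkbp11, a prolyl isomerase, by 2.03. Dnajc3 and Dnajb11, cochaperones of GRP78, changed by 1.88 and 1.69, Pdia6 by 1.87 and Manf, a secreted ER stress protein, by 1.56, while Pdia3, Ppib, Cnpy3 and Mesd changed by 1.48, 1.04, 0.84 and 0.47. Dnajb9, a classical XBP1 target, passed at 1.29 (adjusted p = 0.0349) and lost its call without F2 (adjusted p = 0.155). Canx, the membrane lectin calnexin, rose by only 0.56 (adjusted p = 0.0415; 0.199 without F2).

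Most oxidative folding enzymes that passed the test rose. Of 21 protein disulfide isomerases and ER oxidases, 11 rose and 3 fell (median 0.60). These counts are to be read against 12.6% higher and 12.2% lower over all genes. Pdia3, Pdia4 and Pdia6, which rose, are also on the ER chaperone list, so the 2 lists are not separate results for them. P4hb, the founding disulfide isomerase, rose from 317 to 504 RPKM across the Ad-LacZ libraries to 1003 to 1550 RPKM across the Ad-Cre libraries (log2 fold change 1.81, limma adjusted p = 0.00214). Ero1lb, the oxidase enriched in β cells that recharges disulfide isomerases, fell instead, from 352, 332, 265 and 287 RPKM to 209, 181, 101 and 149 RPKM (log2 fold change −0.85, limma adjusted p = 0.00668). The membrane thioredoxin Tmx4 also fell by 0.78. Without F2, 3 of the 21 rose and none fell by the test, so the fall of Ero1lb was then short of the threshold (−0.88, adjusted p = 0.0618).

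Genes of ER-associated degradation held the largest single rise of the comparison. Derl3, a derlin of the channel that returns misfolded proteins to the cytosol, went from 2.32, 2.92, 1.22 and 2.11 RPKM to 137, 125, 82.3 and 189 RPKM (log2 fold change 5.49, SE 0.17, limma adjusted p = 0.00034). Herpud1, which joins the ubiquitin ligase complex, went from 102, 109, 81.3 and 85.4 RPKM to 638, 594, 561 and 861 RPKM (2.92, limma adjusted p = 0.00147). Sel1l and Syvn1, the adaptor and the ligase of that complex, rose by 2.13 and 1.41. Of 27 genes tested on the list, 12 rose and none fell, but the median was only 0.32, so the list moved through a part of its members; 5 of the 27 rose without F2.

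The steps before and after folding rose by smaller amounts. Of 34 genes of ER translocation and N-glycosylation, 20 rose and none fell (median 0.53), with Ssr4, a subunit of the translocon-associated complex, at 1.09 and Srprb, the anchor of the signal recognition particle receptor, at 1.06. Of 35 genes of ER to Golgi transport, 15 rose and 1 fell (median 0.39), led by Kdelr3, which returns ER residents from the Golgi, at 1.91 and the cargo receptor Tmed2 at 1.38. These calls were the less stable: 1 of 34 and 3 of 35 rose without F2, and the first list had 12 calls with no replicate block and 8 under quantile normalization.

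**Figure D2:**
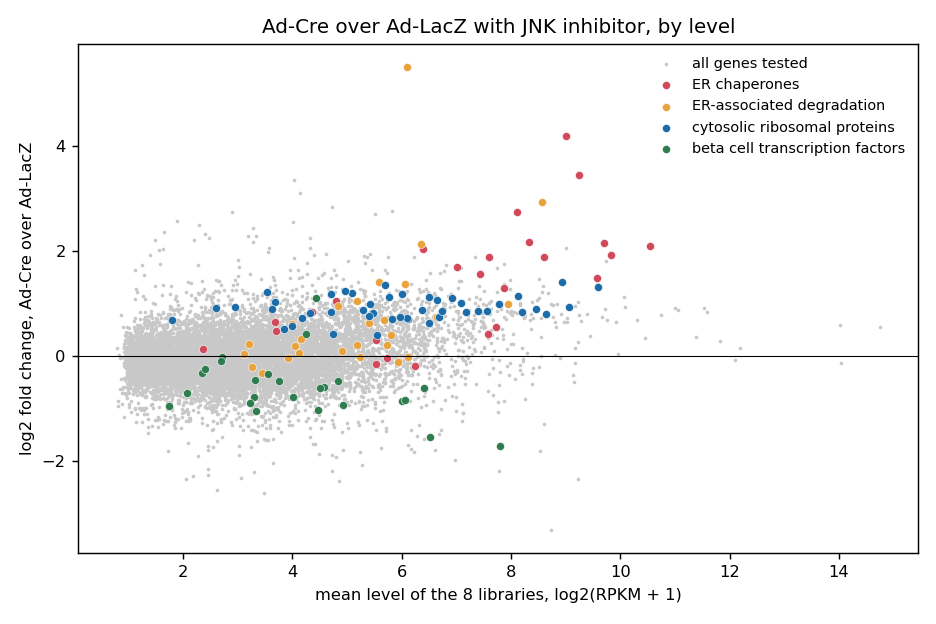
Log2 fold change of each of the 11598 genes tested (y axis, Ad-Cre over Ad-LacZ with JNK inhibitor) against the mean level of the 8 libraries (x axis, log2(RPKM + 1)); grey points are all genes and colours mark 4 lists. Most ER chaperones lie above 1, ribosomal protein genes form a band with a median of 0.88, and β cell transcription factors lie mostly below 0.

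The promoter elements were set beside these values as a description. A RefSeq window from 250 bases before to 50 bases after the start was found by symbol for 9029 of the 11598 genes tested, and 15 of those (0.166%) held an ERSE on either strand. Of these 15 genes, 11 rose and none fell, with a median log2 fold change of 1.41, against −0.04 for all 9029. The element lay in 7 of the 22 ER chaperone genes with a window (Calr, Canx, Creld2, Dnajc3, Hsp90b1, Hspa5 and Pdia6) and in Derl3 and Syvn1 of the degradation list. The window of Hsp90b1 held it at both printed places, 194 to 212 and 89 to 107 bases before the start, and that of Hspa5 at 47 to 65 bases before it.

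ERSE-II was found in 8 genes tested, of which 5 rose and none fell (median 0.51), among them Herpud1 and Dnajb11. The UPR element, TGACG followed at once by TGG, was found in 100 genes tested, of which 22 rose and 11 fell (median 0.06). The C/EBP-ATF composite, TGATG, any base, then AA, was found in 229 genes tested, of which 26 rose and 28 fell (median −0.05). The counts for each element, ERSE included, are to be read against 12.6% higher and 12.2% lower over all genes tested. Those of the C/EBP-ATF composite lay close to these shares. Over all 27025 gene symbols with a window the shares were 0.137% for ERSE, 0.0444% for ERSE-II, 0.714% for the UPR element and 4.51% for the C/EBP-ATF composite; 11 windows held more than 1 kind of element. Pdia4, Sdf2l1 and Ddit3, 3 of the larger rises, held none of the elements in this window.

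Of 11 stress sensors and partners tested, 1 passed (none without F2), where 24.8% of all genes did. Eif2ak3, which encodes PERK, rose from 14.3 to 15.6 RPKM across the Ad-LacZ libraries to 20.3 to 26.2 RPKM across the Ad-Cre libraries. Its log2 fold change was 0.71 (limma adjusted p = 0.00761). Total Xbp1 RNA stood at 87.1, 97.3, 87.9 and 87.1 RPKM in Ad-LacZ and at 94.2, 86.0, 62.0 and 74.6 RPKM in Ad-Cre, with overlapping groups (−0.06, adjusted p = 0.695). Gene-level RPKM does not separate the spliced form of Xbp1. Ern1, which encodes IRE1α, had a log2 fold change of −0.21 (adjusted p = 0.204) and Atf6 of −0.26 (adjusted p = 0.357). For both genes the RPKM of every Ad-Cre library lay below those of Ad-LacZ. The ranges did not overlap, in either direction, for 29.7% of all genes. After scaling, Ern1 was lower in all 4 preparations, and Atf6 was lower in 2 and higher in 2. Of 11 genes whose RNA is known to be cut by IRE1, none rose and 2 fell, Col6a1 (−1.22) and Scara3 (−0.64), against 12.2% of all genes; without F2 Col6a1 did not pass and Scara3 was below the filter. Col6a1 was lower in 3 preparations and slightly higher in F1 (0.095). It is also on the list of stellate cell or fibroblast markers given below, so its fall there is not a separate result. Those markers fell as well, and their part in these 2 values was not tested.

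The ATF4 and CHOP branch was mixed. Ddit3 (CHOP) went from 9.67, 8.88, 14.1 and 12.7 RPKM to 46.6, 48.4, 93.8 and 124 RPKM, a log2 fold change of 2.71 (SE 0.21, limma adjusted p = 0.00214), with the larger rises in M2 and F2. Ppp1r15a (GADD34), which restores translation after PERK signalling, rose by 1.89, Gdf15, a secreted stress cytokine, by 1.36, Nupr1 by 1.32, Trib3 by 1.16, Psat1 of serine synthesis by 1.14 and Atf3 by 1.14. Atf4 itself went from 71.1, 107, 103 and 106 RPKM to 162, 150, 94.4 and 181.5 RPKM (0.71, adjusted p = 0.0394), and its groups overlapped through M2. Chac1, a glutathione-degrading ATF4 target, fell from 47.8, 68.7, 47.4 and 52.9 RPKM to 35.0, 32.8, 22.5 and 41.4 RPKM (−0.59, adjusted p = 0.038; 0.0621 with no replicate block), and Cth of cysteine synthesis fell by 0.60. Asns, asparagine synthetase and a standard ATF4 target, had −0.34 (adjusted p = 0.0585).

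Over the whole list, 10 of 33 genes tested rose and 2 fell (median 0.19; 8 and 6 under quantile normalization), shares to be read against 12.6% and 12.2% of all genes; 3 of the 33 rose without F2. Of 20 tRNA synthetases, 8 rose and none fell (median 0.35), led by Qars (1.13). Without F2, 1 of the 20 rose. Under quantile normalization 3 rose and 2 fell, and with RPKM as deposited 7 rose and 3 fell.

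A few p53 targets rose and most did not pass. Cdkn1a (p21), the cell cycle inhibitor, went from 45.3, 66.3, 115 and 79.2 RPKM to 241, 246, 224 and 278 RPKM (log2 fold change 1.89, SE 0.20, limma adjusted p = 0.00332; 0.0381 without F2). Bax, the effector of mitochondrial cell death, went from 24.7, 35.6, 47.8 and 41.6 RPKM to 48.2, 49.7, 57.4 and 78.0 RPKM (0.77, adjusted p = 0.0121; 0.0944 without F2). Both genes were higher in every Ad-Cre library than in any Ad-LacZ library. Trp53 itself had 0.47 (adjusted p = 0.0664) with overlapping groups. Of 36 core p53 targets tested, 8 rose, among them Gdf15 and Pidd1 (0.71), and 2 fell, among them the antiproliferative gene Btg2 (−0.58), with a median of 0.15, against 12.6% higher and 12.2% lower over all genes; 1 of the 36 rose and none fell without F2. Mdm2, the ligase of p53, had 0.11 (adjusted p = 0.682).

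The 6 genes that the study assayed by qPCR as p53 targets were read separately; how they were chosen was not checked, so they are not taken as independent evidence of a direction. Under JNK inhibition Atf3 and Trib3 rose and Bak1, Phlda3, Sdc1 and Ier5 did not pass. Phlda3, a repressor of AKT, stood at 5.02, 13.7, 35.6 and 22.8 RPKM in Ad-LacZ and at 14.5, 15.8, 17.8 and 28.6 RPKM in Ad-Cre. Sdc1, a heparan sulfate proteoglycan, stood at 0.384, 1.69, 6.31 and 6.60 RPKM in Ad-LacZ and at 3.58, 3.32, 2.34 and 3.54 RPKM in Ad-Cre. Both genes were higher than a low control in F1 and lower than a high control in M2, so the preparations disagreed in direction. Without the inhibitor all 6 passed as higher (median 1.07), yet the virus by inhibitor interaction passed for none of them, with unadjusted p from 0.0606 for Sdc1 to 0.717 for Trib3.

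Of 14 BCL2 family genes tested only Bax passed, where 24.8% of all genes did. Bak1, another effector of mitochondrial death, had −0.01 (adjusted p = 0.953) and Bcl2l1, which encodes BCL-xL, −0.02 (adjusted p = 0.943), while Bcl2, at 0.419 to 1.19 RPKM across the 8 libraries, stood below the filter.

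AP-1 factors are known nuclear outputs of JNK. Of 18 AP-1 and immediate-early genes tested, 4 rose and 1 fell. Mafk, a small MAF factor, rose by 1.16 and Atf3 by 1.14, while Atf2, itself a JNK substrate, fell by 0.68. Jun stood at 6.02, 6.12, 14.1 and 12.5 RPKM in Ad-LacZ and at 8.16, 7.18, 13.1 and 9.87 RPKM in Ad-Cre, with overlapping groups (0.17, adjusted p = 0.371), and Fos had 0.33 (adjusted p = 0.167). The list's median was 0.19 but ran from −0.12 in F2 to 0.64 in F1. Of 19 JNK pathway kinases and scaffolds, Mapk8ip3 (JIP3) rose by 0.97 and 2 fell, among them the upstream kinase Map3k1 (−0.67); Mapk8, which encodes JNK1, had −0.31 (adjusted p = 0.175). Of 11 MAP kinase phosphatases 1 rose and 1 fell, the JNK and p38 phosphatase Dusp10 (−0.52). The counts of these kinases and phosphatases lay close to or under the 12.6% and 12.2% of all genes, and none of either list passed without F2. The AP-1 and immediate-early counts are to be read against the same shares, and 2 of the 18 rose without F2.

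β cell identity genes fell. Of 25 β cell transcription factors tested, 17 fell and 1 rose, with a median of −0.61 and medians of −0.75, −0.64, −0.41 and −0.58 in F1, M1, M2 and F2. Mafa, an activator of insulin transcription in mature β cells, went from 278, 402, 315 and 361 RPKM to 155, 132, 39.4 and 90.6 RPKM (log2 fold change −1.72, SE 0.29, limma adjusted p = 0.0106). Neurod1, a factor of all islet endocrine cells, went from 146, 119, 140 and 147 RPKM to 33.3, 38.8, 56.2 and 46.4 RPKM (−1.53, SE 0.18, limma adjusted p = 0.00442). No Ad-Cre library reached the lowest Ad-LacZ library in either gene. Myt1 changed by −1.05, Pdx1 by −0.85 and Nkx6-1 by −0.83, and the last 2 lost their calls with no replicate block (adjusted p = 0.0888 and 0.119). The 1 factor that rose was Bhlha15 (MIST1), a secretory cell factor and XBP1 target, at 1.10. Without F2, 2 of the 25 fell and 1 rose, with a median of −0.66.

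Genes of glucose sensing and excitation went the same way, with 11 of 24 lower (median −0.60); the 1 gene of the list that rose was Ins2. G6pc2, the islet glucose-6-phosphatase, went from 1154, 1168, 834 and 861 RPKM to 254, 236, 113 and 152 RPKM (−2.33, SE 0.13, limma adjusted p = 0.00139). Ucn3, a peptide of mature β cells, went from 499, 485, 203 and 277 RPKM to 90.6, 111, 49.1 and 41.6 RPKM (−2.19, limma adjusted p = 0.00214). Slc2a2 (GLUT2), the glucose transporter, went from 108, 133, 81.7 and 99.3 RPKM to 39.1, 52.2, 14.9 and 21.7 RPKM (−1.69, limma adjusted p = 0.00333). Each fell in all 4 preparations with no overlap of the groups. Rgs4, a brake on G protein signalling, changed by −1.97 and Sytl4 (granuphilin), which docks insulin granules, by −1.77; 5 of the 24 genes fell without F2.

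**Figure D3:**
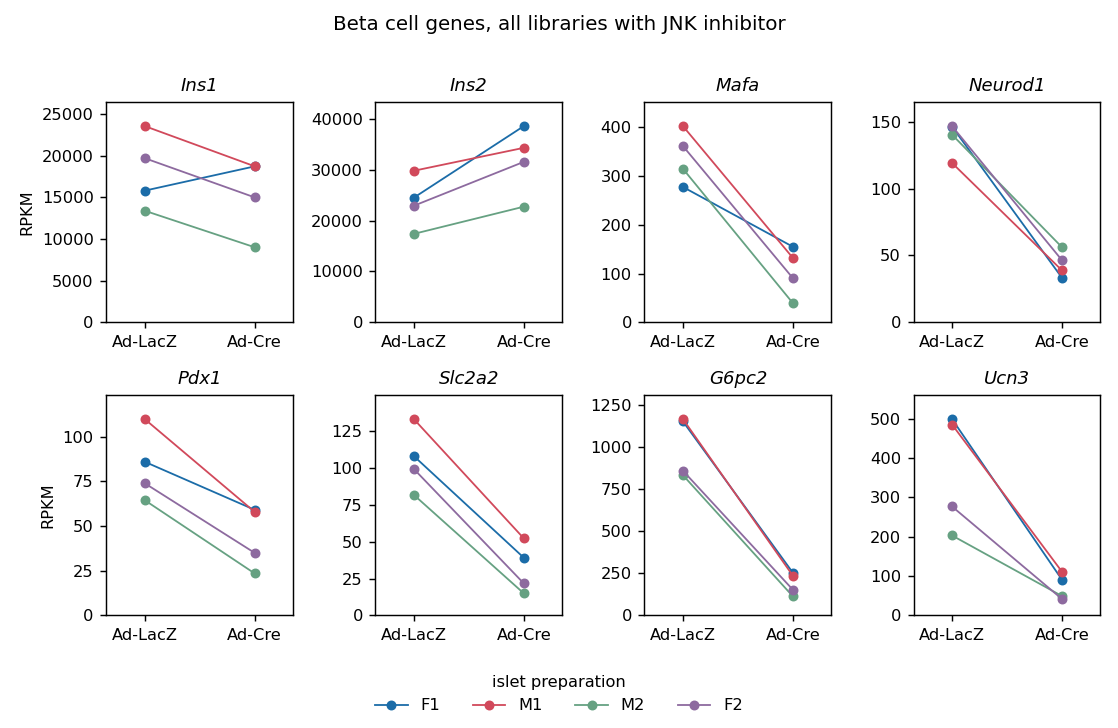
RPKM of 8 β cell genes in the Ad-LacZ and Ad-Cre libraries with JNK inhibitor; each line joins the libraries of 1 islet preparation, and each y axis starts at 0 with its own scale. Mafa, Neurod1, Pdx1, Slc2a2, G6pc2 and Ucn3 fall in all 4 preparations, Ins2 is higher in all 4 and Ins1 is lower in 3.

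The insulin transcripts did not follow. Ins2 stood at 24501, 29787, 17388 and 22915 RPKM in Ad-LacZ and at 38561, 34294, 22731 and 31536 RPKM in Ad-Cre, higher within each preparation though the groups overlapped (log2 fold change 0.56, limma adjusted p = 0.0351). That call was lost with any 1 preparation left out (adjusted p = 0.064, 0.0917, 0.061 and 0.135 without F1, M1, M2 and F2), with RPKM as deposited (0.061) and with no replicate block (0.246), and under quantile normalization the value was −0.13. Ins1 had −0.13 (adjusted p = 0.55). Of 22 granule genes 2 rose and 3 fell (median 0.06; 1 and 6 under quantile normalization), against 12.6% and 12.2% of all genes. Vgf, a granule peptide precursor, rose by 1.68, and Pcsk1, the prohormone convertase PC1/3, changed by −0.87 (0.0623 with no replicate block). Of 15 genes that mature β cells keep low or that mark dedifferentiation, 2 rose, Oat (0.75) and the progenitor factor Neurog3 (0.56, from 0.677 to 1.32 RPKM to 1.51 to 2.27 RPKM), and Serpina7 fell by 1.67, counts again close to those shares.

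Of the other islet hormones, Sst and Ppy rose. Sst, somatostatin of δ cells, went from 2602, 2370, 2961 and 1230 RPKM to 3734, 2732, 6660 and 2382 RPKM (0.84, adjusted p = 0.0355), and Ppy, pancreatic polypeptide, from 1190, 1748, 1979 and 1147 RPKM to 2776, 2065, 2892 and 2532 RPKM (0.92, adjusted p = 0.0196), against 0.17 and 0.23 under quantile normalization. Gcg, glucagon of α cells, had 0.58 (adjusted p = 0.133), with 20808, 11988, 12600 and 10345 RPKM in Ad-LacZ and 21447, 12091, 26503 and 16511 RPKM in Ad-Cre. Of the marker lists, 3 of 10 α cell, 2 of 5 δ cell and 3 of 4 PP cell genes tested rose and none fell, with medians of 0.46, 0.64 and 0.68; none of these passed without F2, 1 α cell gene fell under quantile normalization, and with no replicate block the only gene of the 3 lists that passed was 1 PP cell gene, which rose. Of 10 β cell markers 7 fell and Ins2 rose (median −0.84). The summed RPKM of the β cell markers, which insulin dominates, ranged from 36196 to 61605 in Ad-LacZ and from 33368 to 64583 in Ad-Cre, that of the α cell markers from 11729 to 22840 and from 14046 to 27951. The β cell markers include Mafa, Pdx1, Nkx6-1, Slc2a2, G6pc2 and Ucn3, already described above, so their fall is not a separate result. The part of cell composition in the falls of β cell genes was not tested.

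Stromal genes were lower in Ad-Cre under the inhibitor. Of 11 stellate cell or fibroblast markers tested, 7 fell and none rose (median −1.07), although the groups overlapped for every one. Col1a1 stood at 27.8, 58.1, 280 and 153 RPKM in Ad-LacZ and at 11.5, 10.9, 78.0 and 54.9 RPKM in Ad-Cre (log2 fold change −1.57, limma adjusted p = 0.00426), and Col3a1 at 2.91, 11.7, 101 and 69.3 RPKM against 1.34, 1.42, 15.7 and 12.5 RPKM (−1.91, limma adjusted p = 0.00766). Both collagens were lower in Ad-Cre within all 4 preparations and highest in M2 and F2. With no replicate block none of the 11 passed (Col1a1 adjusted p = 0.184), and without F2 only 1 did. The summed RPKM of the list ranged from 189 to 1448 in Ad-LacZ and from 150 to 876 in Ad-Cre.

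Spp1 (osteopontin), a matricellular protein on the duct cell list (2 of 6 higher, 1 lower), fell with no overlap of the groups, from 332, 481, 657 and 813 RPKM to 155, 168, 274 and 226 RPKM (−1.30, limma adjusted p = 0.00421). None of 11 macrophage, 8 endothelial and 2 lymphocyte markers tested passed, and of 2 acinar markers tested 1 rose. Summed acinar markers were at most 12.7 RPKM, with 4 of them listed at 0 in all 8 libraries, and lymphocyte markers at most 6.25 RPKM, with 1 at 0; summed macrophage markers ranged from 175 to 374 RPKM in Ad-LacZ and from 213 to 357 RPKM in Ad-Cre.

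**Figure D4:**
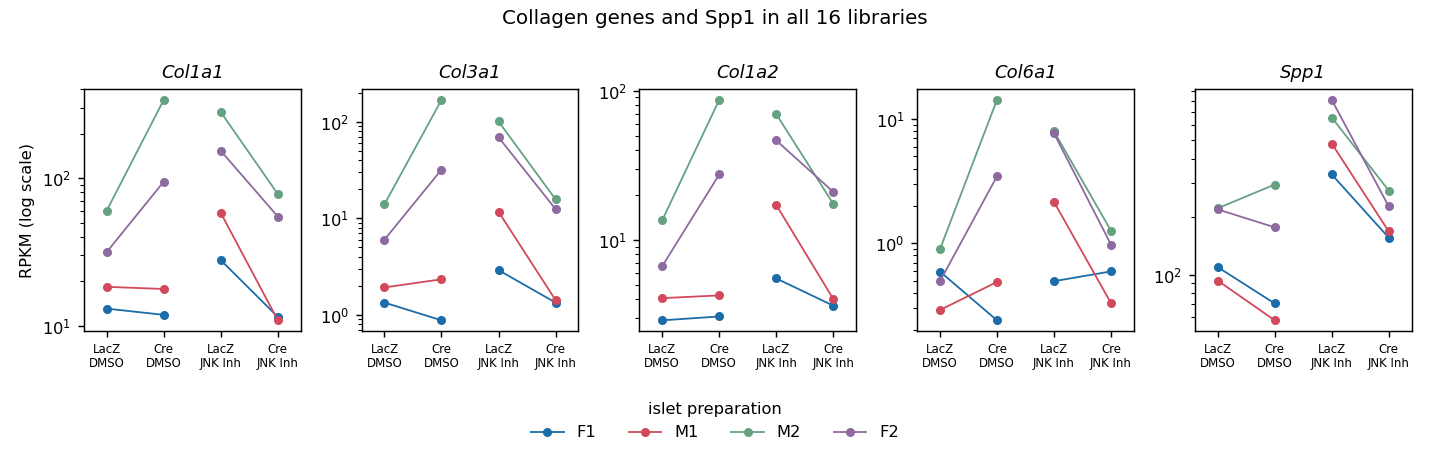
RPKM on a log scale of 4 collagen genes and Spp1 in all 16 libraries; lines join the Ad-LacZ and Ad-Cre libraries of 1 islet preparation with DMSO (left pair) or with JNK inhibitor (right pair). Col1a1, Col3a1 and Col1a2 fall in all 4 preparations with inhibitor, while with DMSO they rise steeply in M2 and F2.

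Ribosomal protein genes rose together. Of 46 cytosolic ribosomal protein genes, 38 rose and none fell, all 46 had positive fold changes and the median was 0.88, with 0.99, 0.83, 0.88 and 1.03 in F1, M1, M2 and F2. Rplp0, a stalk protein, went from 243, 319, 301 and 277 RPKM to 818, 675, 508 and 791 RPKM (1.40, adjusted p = 0.00414). The count was 25 under quantile normalization and 6 without F2. Ribosomal protein genes have many processed pseudogenes, and how reads were split between copies is not given in the sources used here. Of 29 MYC and ribosome biogenesis genes 13 rose and none fell (median 0.45), led by Nop56 (1.24). Of these 29 genes, 10 rose under quantile normalization and 2 without F2. The counts of both lists are to be read against 12.6% higher and 12.2% lower over all genes.

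Gene length moved with the fold change and is given beside these lists. Among the 2900 shortest genes tested, 62 to 2618 bases of exon, 627 rose and 207 fell (median 0.14), and among the 2900 longest, 6714 to 41324 bases, 123 rose and 622 fell (median −0.21). The median exon length was 1924 bases for the ribosomal protein genes, 3305 for the ER chaperones and 4010 for the β cell factors, against 4300.5 for all genes tested. Mean level moved with the fold change too. Among the 2900 genes of highest level 733 rose and 267 fell (median 0.17), and among the 2900 of lowest level 174 rose and 390 fell (median −0.09). Under quantile normalization these medians were 0.0075 and 0.0040. The part of length or level in these results was not tested.

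Other stress and metabolic lists rose in part. Of 31 proteasome genes 13 rose and none fell (median 0.30), led by Psmb3 (1.02), but none rose without F2, and 10 rose and 3 fell with RPKM as deposited. Of 24 sterol synthesis genes 11 rose, with Mvd of the mevalonate pathway at 1.98. Of 21 NRF2 targets 7 rose, among them the autophagy receptor Sqstm1 (2.06) and haem oxygenase Hmox1 (1.30), while Nqo1, often used as the standard NRF2 readout, fell from 44.8, 40.9, 54.3 and 48.2 RPKM to 12.1, 12.7, 10.4 and 11.8 RPKM (−1.78, limma adjusted p = 0.00203). Nqo1 thus went against the members of its list that rose.

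Of 28 autophagy and lysosome genes 11 rose and 2 fell, of 20 cytosolic heat shock genes 6 rose and 1 fell, of 16 glycolytic enzymes 6 rose and 1 fell, and of 32 oxidative phosphorylation genes 12 rose and none fell (3 rose and 1 fell under quantile normalization). Without F2 none of the 20 heat shock and none of the 32 oxidative phosphorylation genes passed. Of 22 DNA replication and mitosis genes 9 rose and none fell (median 0.35): Ccne1, cyclin E1, rose by 1.45 and Pcna, the replication clamp, from 13.8, 15.9, 16.8 and 15.8 RPKM to 30.9, 33.9, 20.6 and 25.0 RPKM (0.89, adjusted p = 0.00894). Of 10 G1 cyclins and CDK inhibitors 2 rose, Cdkn1a and Ccnd1 (1.25), and 1 fell. Of 15 interferon-stimulated genes Usp18 rose by 0.77 and 3 fell, among them Ifit1 (−0.71); 2 of 10 MHC class I genes rose, and 2 of 13 chemokine and NF-κB genes rose and 2 fell. The counts of every list in this and the preceding paragraph are to be read against 12.6% higher and 12.2% lower of all genes. In the last 3 lists, of interferon-stimulated, MHC class I and chemokine and NF-κB genes, no gene passed without F2.

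**Figure D5:**
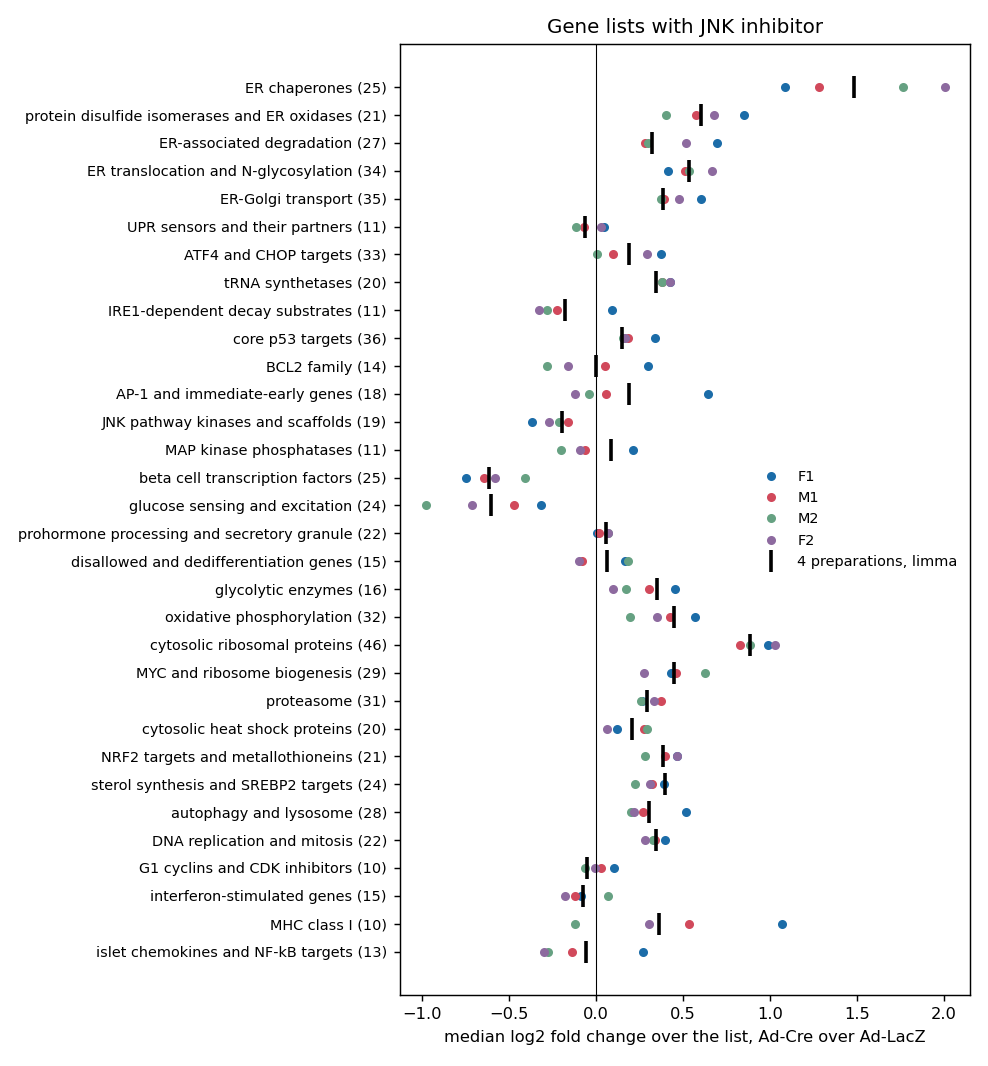
Median log2 fold change (x axis, Ad-Cre over Ad-LacZ with JNK inhibitor) of each gene list other than the cell type markers and the qPCR genes, with the number of genes tested in brackets; dots are the medians within each islet preparation and black bars the medians of the limma estimates. ER chaperones lie farthest right, from 1.09 to 2.00, ribosomal proteins between 0.83 and 1.03, and β cell transcription factors and glucose sensing genes lie below 0 in all 4 preparations.

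Among genes on no list, the 10 largest rises that were alike in all 4 preparations also held C1qtnf1, a secreted complement-like protein (3.10), Cgref1, a secreted calcium-binding protein (2.84), Ambp, the precursor of the protease inhibitor bikunin (2.76), and the sugar transporter Slc2a6 (2.74). Ambp was among the most even, at 13.3, 15.6, 14.9 and 14.7 RPKM in Ad-LacZ and 99.0, 84.0, 91.5 and 110 RPKM in Ad-Cre. Rnu3b4, a copy of the U3 small nucleolar RNA, rose by 3.34 but with 7.97, 3.81, 46.3 and 61.4 RPKM in Ad-Cre, and its value is uncertain, since the RNA has near-identical copies.

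The 10 largest falls of the same kind held, beside G6pc2 and Ucn3, the steroid-metabolizing enzyme Akr1c14 (−2.60), Lix1 (−2.55), Phactr1, an actin and phosphatase regulator (−2.38), Gm11578 (−2.34), the hyaluronan receptor Lyve1 (−2.32), the synaptic protein Lrrtm2 (−2.28), the cornified envelope gene Sprr1a (−2.26) and the bicarbonate transporter Slc4a10 (−2.20). Lyve1 had an unusually tight control group, at 12.8, 13.1, 13.1 and 13.0 RPKM, against 1.74, 1.95, 1.62 and 1.20 RPKM in Ad-Cre.

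Whether the inhibitor changed the effect of Ad-Cre was tested as a virus by inhibitor interaction over all 16 libraries. None of 12274 genes passed at an adjusted p under 0.05; the smallest adjusted p was 0.0687, and 1433 genes (11.7%) had an unadjusted p under 0.05, 647 positive and 786 negative. Hspa5 had an interaction of 0.41 on the log2 scale (unadjusted p = 0.06, adjusted 0.46). Of the ER chaperones 1 of 25 had an unadjusted p under 0.05, and the list's median interaction was 0.35.

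Some lists lay farther apart, without any gene passing. Without the inhibitor, where 16.9% of 11590 genes rose and 17.6% fell, the stellate or fibroblast markers had a median of 0.87 with no calls, and their median interaction was −2.18, with 10 of 11 at an unadjusted p under 0.05. Col1a1 with DMSO stood at 13.1, 18.4, 60.3 and 31.6 RPKM in Ad-LacZ and at 11.9, 17.8, 339 and 94.7 RPKM in Ad-Cre, so the rise there rested on M2 and F2. Macrophage markers had medians of 0.73 without and 0.01 with the inhibitor (4 of 11 at an unadjusted p under 0.05) and interferon-stimulated genes of 0.33 and −0.08 (8 of 15). The α, δ and PP cell markers had medians of −0.01, 0.04 and 0.16 without the inhibitor, with interactions of 0.46, 0.57 and 0.57. Core p53 targets had 19 genes higher without the inhibitor and 8 with it, and none of the 36 reached an unadjusted p under 0.05 for the interaction.

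Of single genes, Mucl2 and Zfp784 were singled out after their values were seen, because each passed the interaction under another setting. Mucl2, a mucin-like gene, was at 0, 0, 0.274 and 0 RPKM in Ad-LacZ and at 7.37, 6.47, 5.07 and 2.46 RPKM in Ad-Cre with the inhibitor, and at no more than 0.465 RPKM in the 8 DMSO libraries (interaction 2.27, limma adjusted p = 0.0687). Zfp784, a zinc finger gene, rose by 1.04 with the inhibitor and by 0.29 without it (limma adjusted p = 0.00334 and 0.0428). Its interaction was 0.77 (limma adjusted p = 0.0687). Ambp had an interaction of 1.16 at the same adjusted p.

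The effect of Ad-Cre was also compared between preparations coded F and M. None of 11598 genes passed at an adjusted p under 0.05, and 195 had an unadjusted p under 0.05, in a design of 2 preparations per label. For Hspa5 the difference, female minus male, was 0.06 on the log2 scale (SE 0.34, limma adjusted p = 0.955).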

How the data were processed

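Gene expression was measured by poly(A) RNA-seq in 16 libraries of mouse islet cells, of which 8 are analysed here. The authors deposited a table of RPKM values per gene; the labels name the GRCm38 build, and the study's methods cite STAR for alignment and name TMM normalization in DEBrowser; how RPKM were made from counts, and with which gene lengths, is not given in the sources used here. Of its value columns, 3 match no sample label and were left out. Depth was recovered from the RPKM worth of 1 read, using exon lengths of GENCODE vM21. RPKM were scaled by TMM factors computed on them (30% trim of ratios, 5% of levels), and log2(RPKM + 1) was fitted with limma 3.58.1 in R 4.3.3 (lmFit, eBayes with trend, islet preparation and virus as terms) over genes above 1 RPKM in at least 4 of 8 libraries. The interactions with inhibitor (16 libraries) and with sex label (8 libraries) were fitted alike. Adjusted p-values are Benjamini-Hochberg. The fit was tested on simulated data.

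The preparation code in the titles pairs libraries of the same animals. Deviations of paired libraries from their group means correlated at 0.154, 0.657, 0.321 and 0.5 in F1, M1, M2 and F2. Other pairs had a mean of −0.127. When paired libraries correlate, centring each gene within its group makes that mean negative, so it is no independent baseline. The labels put all 16 libraries but 1 on 1 run and lane. Within each group, libraries correlated at 0.913 or more.

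The comparison, the gene lists (33, and 10 of cell type markers) and the motifs were chosen with earlier results of these data known. Named genes are the genes the study discusses, the 10 largest rises and falls among genes called and alike in all 4 pairs, the leading members of each list, hormones and markers; other list members, Mucl2, Zfp784 and Igkc were picked after their values were seen. List genes were matched by symbol, and 2 were not found in the table. Promoter windows are RefSeq's (GRCm38.p6). Repeats of the fit changed 1 choice each: quantile normalization or no scaling, no block, no trend, a minimum of 0.1 RPKM or none, a pseudocount of 0.1, 1 preparation left out (minimum then in 3 libraries), and 1 fit of all 16 libraries, which for single genes and lists was added after seeing the data. Replicates are islet preparations. With the preparation as a block, the limma p-values of the main comparison rest on how far the difference between Ad-Cre and Ad-LacZ varied between preparations. They do not measure the spread of levels between preparations. 1 gene of the lists is not reported here by name.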

Additional observations from a re-analysis of the deposited data

Results flagged for a closer look

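A library far from the other 3 of its group was looked for in 260 groups of values of the named genes, marker lists and depths, and chance alone marks about 1 in 20 groups. The value given is the gap to the nearest library as a share of the group's range. In Ad-Cre with inhibitor, F2 was highest for Pdia4 (1434 against 959 to 1026 RPKM, share 0.86) and C1qtnf1 (46.5 against 22.9 to 26.9 RPKM, 0.833). M2 was highest for Bak1 (17.9 against 14.0 to 14.5 RPKM, 0.884) and lowest for Hyou1 (320 against 576 to 597 RPKM, 0.926) and Qars (21.2 against 25.7 to 25.9 RPKM, 0.973). F1 was lowest for Tmx4 (7.83 against 10.4 to 10.8 RPKM, 0.852) and highest for Pyy (4020 against 2151 to 2332 RPKM, 0.903), and M1 was highest for Slc4a10 (3.499 against 1.87 to 2.07 RPKM, 0.88).

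In Ad-LacZ with inhibitor, F1 was lowest for Atf4 (71.1 against 103 to 107 RPKM, 0.888), Eif2ak3 (14.3 against 15.4 to 15.6 RPKM, 0.852) and Qars (10.8 against 11.9 to 12.2 RPKM, 0.834) and highest for Atf2 (19.3 against 16.9 to 17.3 RPKM, 0.848). M1 was highest for Xbp1 (97.3 against 87.1 to 87.9 RPKM, 0.922), and M2 was the only library of the group above 0 for Mucl2 (0.274 RPKM, 1).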

How the results depend on the processing

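The 1844 genes called came to between 1404 (no filter) and 2227 (pseudocount of 0.1) under the other settings of filter, pseudocount, scaling, trend and block, to 2159 with all 16 libraries in 1 fit and to 2882 with no fold change asked; with no replicate block the count was 1753. RPKM as deposited moved the median of all genes to −0.14 and the split to 671 higher and 1366 lower, against 998 and 846, so directions near 0 there are to be read against that shift. Leaving out 1 preparation gave 342 to 2787 genes called and a log2 fold change of Hspa5 of 1.79 to 2.04, past the threshold each time; the other settings gave 1.17 to 1.93 for Hspa5. The interaction with the inhibitor had 0 genes, and had 1 gene (Mucl2) under quantile normalization, 2 (Mucl2, Zfp784) with no replicate block, and 0 to 1 with a preparation left out. The interaction with the sex label had 0 genes, and 10 to 202 with a preparation left out, where 1 label has a single pair and few degrees of freedom remain. Signs reversed for Ins2 and Ttr, which had passed the test, under quantile normalization (−0.13 and −0.078) and for Mdm2, which had not, with RPKM as deposited (−0.012). Among genes that had not passed, leaving out a preparation gave −0.0687 to 0.0875 for Bak1, −0.24 to 0.64 for Sdc1, −0.17 to 0.088 for Bcl2l1 and −0.070 to 0.32 for Mdm2. Of 102 named genes that passed, 99, 65, 98 and 58 passed without F1, M1, M2 and F2. With no replicate block 15 of the 102 lost their calls, among them the 4 collagens, Sst, Pyy, Rbp4 and Oat, and Trp53 passed (adjusted p = 0.0479). List medians moved by more than the spread between preparations for 15 of 43 lists with RPKM as deposited and 17 under quantile normalization. The cause was not tested. Depth limits Ad-Cre F2 most, at 7.72 M reads (M, mega).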

Other observations

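Antibody genes differed between preparations and groups without passing a test, and they were looked at only after their values were seen. Igkc, the constant region of the κ light chain, was at 0.798, 0.911, 1450 and 1904 RPKM in Ad-LacZ with inhibitor for F1, M1, M2 and F2, and at 1.29, 0.724, 49.0 and 2.68 RPKM in Ad-Cre with inhibitor (log2 fold change −3.30, limma adjusted p = 0.153). The level lay in M2 and F2, the same preparations that held the most collagen RNA, and near 1 RPKM in F1 and M1. Of 8 lymphocyte markers only 2 stood above the filter.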
